A study of Mus musculus with 6 samples.

Results

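The 10 genes described here encode small leucine-rich proteoglycans (*Dcn*, *Bgn*, *Lum*, *Fmod*, *Prelp* and *Ogn*) and matricellular proteins (*Sparc*, *Thbs1*, *Tnc* and *Postn*) of the extracellular matrix. They were chosen by symbol, matched to the NCBI gene identifiers of the count table, and all 10 were found among its 19790 genes. Gonadal white adipose tissue (gWAT), a visceral fat pad, was taken from 6 C57BL/6 mice of wild-type genotype, 3 on a normal chow diet (NCD) and 3 on a high-fat diet (HFD). Feeding lasted 8 weeks and started at 6 weeks of age according to the sample labels, whereas the methods put the start at 8 weeks. The methods describe male mice, and give a rodent chow and a high-fat diet from different makers, so fat content and the source of the diet changed together. Whole-tissue RNA was sequenced from polyadenylated transcripts, and the authors deposited unnormalized read counts per gene.

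Small leucine-rich proteoglycans are short core proteins folded into a curved stack of leucine-rich repeats, most of them with chondroitin, dermatan or keratan sulfate chains. They bind collagen fibrils and set their diameter and spacing, and some of them hold TGF-beta or signal through Toll-like receptors. Matricellular proteins are secreted into the matrix without forming its main framework, and act on cell adhesion, migration and growth factor activity. In fat, fibroblasts and adipocyte progenitors make most of this matrix, with contributions from adipocytes, mural cells and macrophages, and it is rebuilt as the pad expands in obesity.

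The libraries held between 49575113 and 66360046 counts. Genes of the seminal vesicle secretion took 58.6% of the counts of NCD replicate 1, 11.2% of NCD replicate 2 and 2.30% of NCD replicate 3, and at most 8 counts in an HFD library. Counts were scaled by TMM, a method that balances libraries on their shared genes. They are given as TMM-scaled CPM, where the divisor is the library's total over the genes tested, multiplied by its TMM factor. TMM gave NCD replicate 1 a factor of 0.496, against 1.02 to 1.27 in the other mice. The 7 adipocyte marker genes, headed by *Adipoq*, *Fabp4* and *Plin1*, were detected in all 6 libraries, summing to 3633 TMM-scaled CPM in NCD replicate 1 and to between 11651 and 19580.5 in the other mice. Each fold change of the 10 genes is given for all 6 mice and without NCD replicate 1. Since whole tissue was sequenced, a difference in the number of cells of a type cannot be told apart from a difference in RNA per cell.

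With all 6 mice, 5 of the 10 genes rose on HFD and none fell at an adjusted p under 0.05 in edgeR's quasi-likelihood test, in a comparison where 7.47% of the 15241 genes tested passed, 5.58% higher and 1.9% lower. At an unadjusted p under 0.05 the same test gave no falling gene of the 10 with all mice and 1, *Ogn*, without NCD replicate 1. Over all genes tested 4524 and 5825 had such a p in the respective fits, in either direction. DESeq2 with all mice called 5 of the 10, all higher, and over the 15241 genes tested it called 2153 higher and 1751 lower. Of the 10 genes, those that rose were the thrombospondin *Thbs1*, the proteoglycans *Prelp* and *Bgn*, the periostin gene *Postn* and the tenascin gene *Tnc*. The same 5 passed without NCD replicate 1, where 20.9% of the genes tested passed, 10.7% higher and 10.1% lower. *Dcn*, *Lum*, *Fmod*, *Ogn* and *Sparc* did not pass in either fit. The median log2 fold change was 1.37 over the 10 genes and -0.08 over all genes tested. All 10 passed the filter on low counts. In 6 of the 10 genes the HFD values were all above the NCD values, and in none were they all below. Over all genes tested 39.2% had diets that did not overlap, 20.5% with HFD above and 18.7% with HFD below. With NCD replicate 1 left out these shares were 57.1%, 27.9% and 29.1%.

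**Figure D1:**
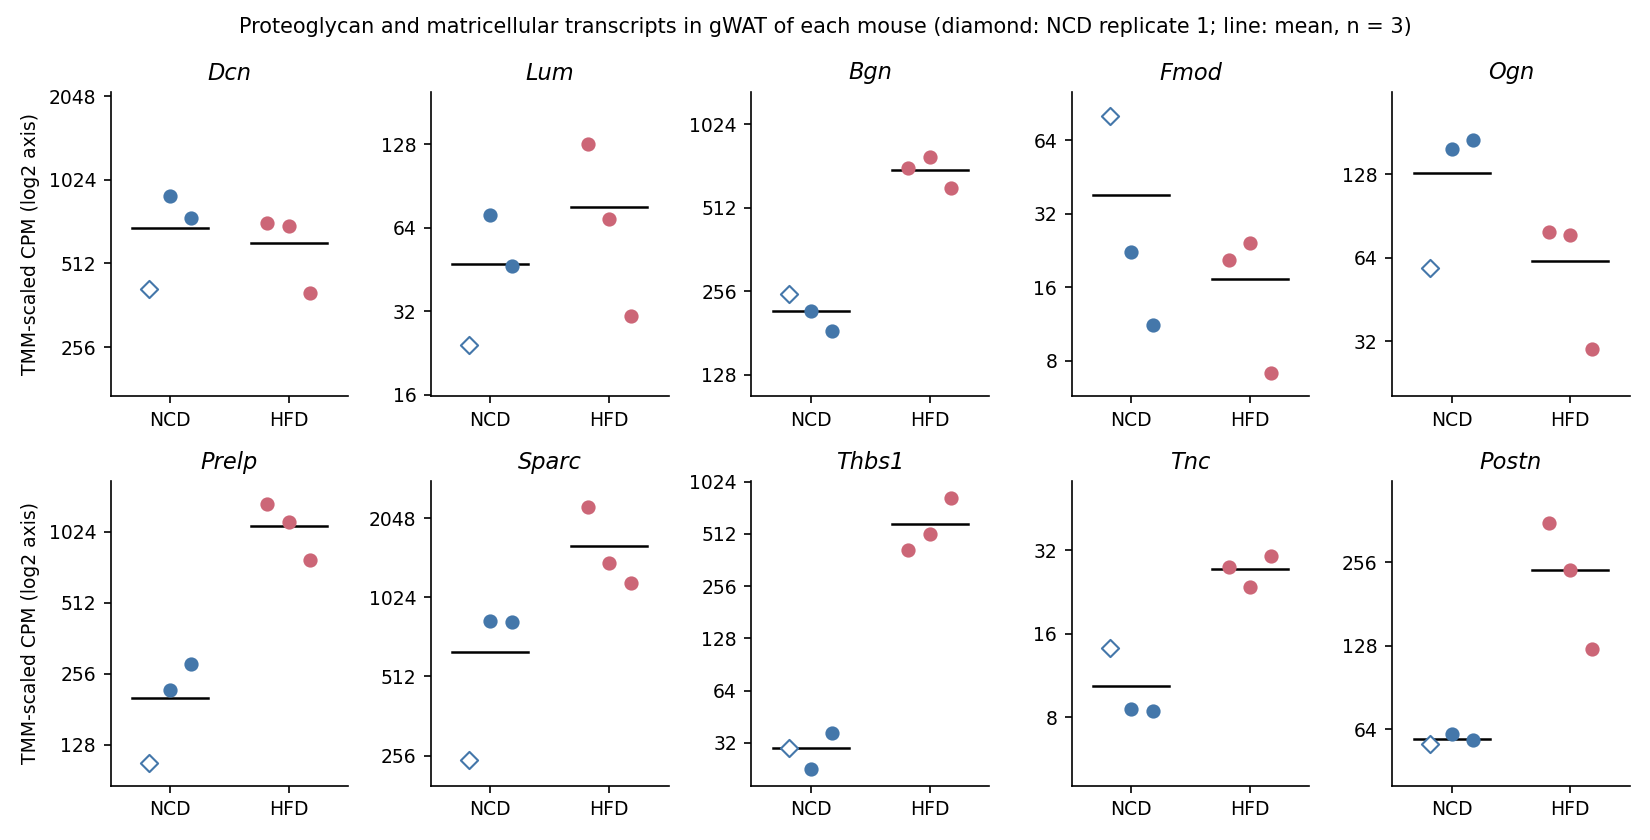
TMM-scaled CPM (log2 axis) of the 10 genes in gWAT of each NCD-fed and HFD-fed mouse, 1 point per mouse, with the diamond marking NCD replicate 1 and the line the mean of 3 mice. The diets do not overlap for *Bgn*, *Prelp*, *Sparc*, *Thbs1*, *Tnc* and *Postn*, and NCD replicate 1 is the highest library for *Fmod*.

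*Dcn* encodes decorin, a collagen-binding proteoglycan with a single dermatan or chondroitin sulfate chain that also binds TGF-beta. In NCD replicates 1, 2 and 3 it reached 416, 899.9 and 747 TMM-scaled CPM, and in HFD replicates 1, 2 and 3 it reached 716, 699.8 and 401. The lowest values came from NCD replicate 1 and HFD replicate 3, and the diets overlapped. The mean was 688 ± 247 on NCD and 606 ± 177 on HFD (SD, n = 3 mice each), with a log2 fold change of -0.18 and a 95% interval of -1.14 to 0.77 (adjusted p = 0.778 from edgeR). Without NCD replicate 1 every HFD-fed mouse lay below both NCD-fed mice, as in 29.1% of all genes tested there, and the log2 fold change was -0.43 with an interval of -1.16 to 0.30 (adjusted p = 0.335 from edgeR). Its sign was positive when NCD replicate 2 or HFD replicate 3 was left out (0.057 and 0.054) and with total-count scaling in place of TMM (0.20), so no direction is given for this gene.

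*Bgn* encodes biglycan, the closest relative of decorin, which carries a pair of such chains and can act on Toll-like receptors when released from the matrix. *Bgn* had 250.1, 218 and 184 TMM-scaled CPM in the NCD libraries and 713, 779 and 602 in the HFD libraries, in the order of the replicate numbers. The highest NCD value was that of NCD replicate 1, and all HFD values lay well above it. *Bgn* rose 3.21-fold, from 217 ± 33.2 to 698 ± 89.4 (SD, n = 3 mice each), with 1.68 ± 0.23 (SE) as the log2 fold change (adjusted p = 0.0223 from edgeR). The log2 fold change without NCD replicate 1 was 1.81 (adjusted p = 0.00686 from edgeR).

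*Lum* encodes lumican, a keratan sulfate proteoglycan that limits the thickening of collagen fibrils. The NCD libraries had 24.2, 71.4 and 46.5 and the HFD libraries 129, 69.1 and 30.8 TMM-scaled CPM. HFD replicate 3 lay within the NCD range and HFD replicate 1 far above it, and on each diet the lowest and highest mouse differed widely. The log2 fold change of *Lum* was 0.68 with an interval of -0.77 to 2.14 (adjusted p = 0.472 from edgeR), and 0.38 without NCD replicate 1 (adjusted p = 0.665).

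*Fmod* encodes fibromodulin, a relative of lumican that binds the same site on collagen. It was at 80.7, 22.4 and 11.1 TMM-scaled CPM in the NCD libraries and at 20.6, 24.3 and 7.13 in the HFD libraries. NCD replicate 1 stood apart as the highest of the 6, and the other 2 NCD-fed mice lay within the range of the HFD-fed mice. The log2 fold change was -1.13 with all mice (interval -3.10 to 0.83, adjusted p = 0.384 from edgeR) and 0.06 without NCD replicate 1 (interval -1.32 to 1.44, adjusted p = 0.951), so that its sign rests on that library. The 8 smooth muscle and pericyte markers summed, for NCD replicates 1, 2 and 3, to 7307, 1216 and 768 TMM-scaled CPM, and to between 466 and 639 on HFD, and none of these markers was at 0 in any library. The 7 epithelial markers summed to 1112, 116 and 30.3 in the NCD libraries and to between 26.9 and 115 on HFD, where *Krt5* was at 0 in every library and *Cldn4* in HFD replicates 2 and 3. Both lists, like *Fmod*, were highest in NCD replicate 1, and their part in the *Fmod* value was not tested.

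*Prelp* encodes prolargin, a heparin-binding relative of lumican and fibromodulin that links basement membranes to the collagen beneath. The NCD libraries had 108, 219 and 282 and the HFD libraries 1338, 1127 and 778 TMM-scaled CPM. Every HFD-fed mouse was far above the highest NCD-fed mouse, and NCD replicate 1 was the lowest of all. *Prelp* rose 5.34-fold, from 203 ± 88.1 to 1081 ± 283 (SD, n = 3 mice each), and the log2 fold change was 2.42 ± 0.44 (SE, adjusted p = 0.0344 from edgeR). Without NCD replicate 1 the rise was 4.32-fold, a log2 fold change of 2.12 (adjusted p = 0.0110 from edgeR). With counts scaled by their totals alone it missed the threshold (log2 fold change 2.77, adjusted p = 0.0528 from edgeR).

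*Ogn* encodes osteoglycin, also called mimecan, which takes part in collagen fibril assembly. It was at 58.8, 157 and 171 TMM-scaled CPM on NCD and at 79.04, 77.4 and 30.1 on HFD. NCD replicates 2 and 3 were the highest of the 6, whereas NCD replicate 1 lay within the HFD range. The mean was 129 ± 61.2 on NCD and 62.2 ± 27.8 on HFD (SD, n = 3 mice each), and the log2 fold change of -1.05 did not pass (interval -2.33 to 0.23, adjusted p = 0.237 from edgeR). Without NCD replicate 1 all HFD-fed mice lay below both NCD-fed mice, as for 29.1% of all genes tested. The log2 fold change there was -1.39 (interval -2.40 to -0.38, not adjusted for the number of genes), and its adjusted p of 0.0632 from edgeR missed the threshold (unadjusted p = 0.0153).

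*Thbs1* had the largest fold change of the 10 genes. It encodes thrombospondin 1, a trimeric protein of platelets, macrophages and stromal cells that binds CD47 and CD36, restrains angiogenesis and can release active TGF-beta from its latent form. It was at 29.9, 22.6 and 36.6 TMM-scaled CPM on NCD and at 413, 514 and 824 on HFD. Every HFD value was more than 10 times every NCD value, and NCD replicate 1 lay between the other NCD-fed mice. *Thbs1* rose 19.6-fold, from 29.7 ± 7.01 to 584 ± 214 (SD, n = 3 mice each), with 4.30 ± 0.38 (SE) as the log2 fold change (adjusted p = 0.0192 from edgeR), and 4.32 without NCD replicate 1 (adjusted p = 0.00667).

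*Postn* encodes periostin, a fasciclin-domain protein that binds integrins and collagen and helps lysyl oxidase cross-link fibrils. On NCD it stood at 56.6, 61.4 and 58.4 TMM-scaled CPM and on HFD at 355, 239.7 and 124. The NCD-fed mice were nearly level, and the HFD-fed mice were spread over a wider range, all above them. *Postn* rose 4.07-fold, with means of 58.8 ± 2.42 and 239 ± 115 (SD, n = 3 mice each) and 2.03 ± 0.38 (SE) as the log2 fold change (adjusted p = 0.0362 from edgeR). Leaving out NCD replicate 1 gave 2.01 (adjusted p = 0.0305 from edgeR).

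*Tnc* encodes tenascin-C, a large hexameric glycoprotein of developing and healing tissue that activates TLR4. It was low throughout, at 14.3, 8.55 and 8.41 TMM-scaled CPM on NCD, from 452 to 511 counts per library, and at 27.8, 23.7 and 30.6 on HFD. The diets did not overlap, and NCD replicate 1 was the highest NCD library. *Tnc* rose 2.63-fold, from 10.4 ± 3.33 to 27.4 ± 3.49 (SD, n = 3 mice each), with 1.40 ± 0.26 (SE) as the log2 fold change (adjusted p = 0.0359 from edgeR), or 1.70 without NCD replicate 1 (adjusted p = 0.00642).

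*Sparc* encodes osteonectin, a calcium- and collagen-binding matricellular protein known in fat for restraining adipogenesis. It was at 246, 835 and 822 TMM-scaled CPM on NCD and at 2264, 1383 and 1159 on HFD. The diets did not overlap, with NCD replicate 1 far below the other NCD-fed mice and HFD replicate 1 above the other HFD-fed mice. The means were 634 ± 337 and 1602 ± 584 (SD, n = 3 mice each), and the log2 fold change of 1.34 did not pass (interval -0.02 to 2.70, adjusted p = 0.174 from edgeR). Without NCD replicate 1 it was 0.96 (interval 0.12 to 1.80, which is not adjusted for the number of genes, adjusted p = 0.0972 from edgeR).

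**Figure D2:**
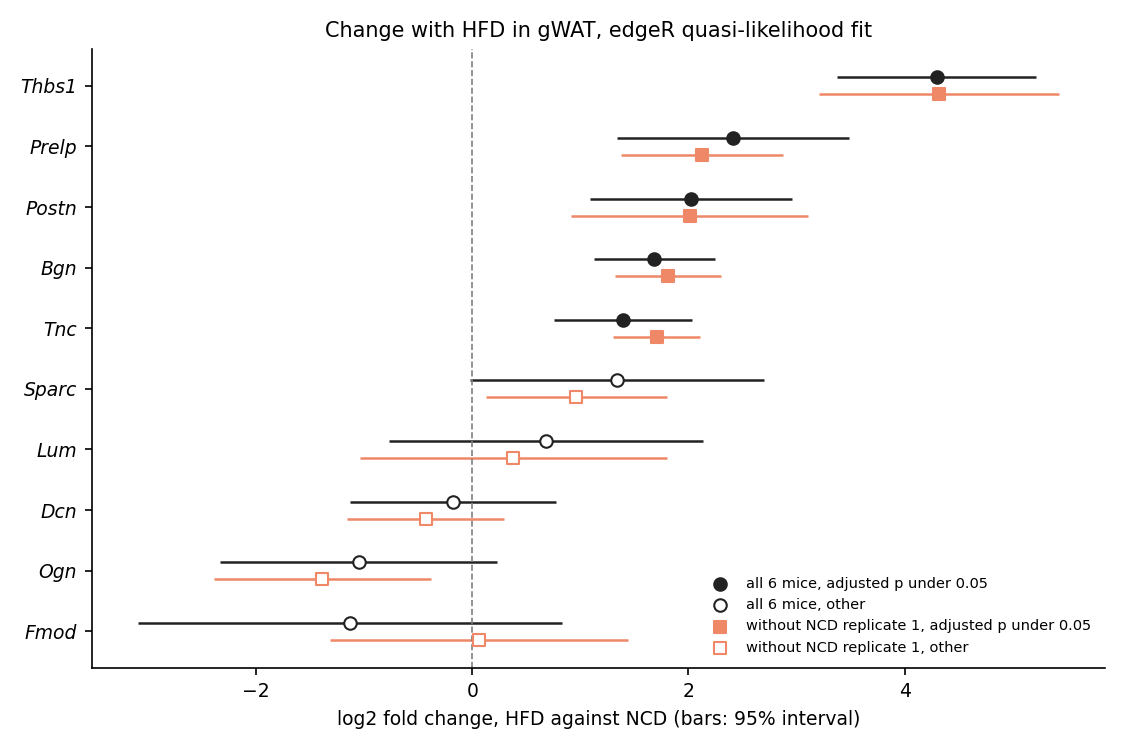
Log2 fold change of each gene, HFD against NCD, from the edgeR fit with all 6 mice (circles) and without NCD replicate 1 (squares), where bars are 95% intervals and filled symbols passed an adjusted p under 0.05. *Thbs1* at 4.30 and 4.32 lies farthest to the right, and *Fmod* moves from -1.13 to 0.06.

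The 5 rises no longer passed when NCD replicate 2, NCD replicate 3 or any one of the HFD-fed mice was left out, with the same direction and adjusted p-values from 0.0548 to 0.136 in edgeR. In those fits between 2 and 7 genes of the whole table passed. *Prelp*, *Thbs1* and *Tnc* share 350, 208 and 176 exon bases, respectively, with an annotated transcript on the opposite strand, and the sources used here do not say whether reads were counted by strand.

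Levels of different genes were compared within a mouse as TMM-scaled CPM per kilobase of exon. On NCD *Dcn* was the highest of the 10 in every mouse, at 214, 464 and 385 per kilobase in replicates 1, 2 and 3. On HFD *Sparc* was the highest in every mouse, at 832, 508 and 426 per kilobase, against 369, 361 and 207 for *Dcn*. *Dcn* ranked between 2 and 4 of the 10 in the HFD-fed mice, and *Sparc* ranked 2 or 3 in the NCD-fed mice. *Tnc* was the lowest of the 10 in 5 mice, and *Fmod* in HFD replicate 3. The order below the top was *Sparc*, *Bgn*, *Prelp*, *Ogn*, *Lum*, *Postn*, *Fmod*, *Thbs1* and *Tnc* by the NCD means, which were 233, 89.8, 56.05, 50.3, 19.4, 17.9, 12.2, 5.08 and 1.34 per kilobase. In this order *Prelp* and *Ogn*, *Lum* and *Postn*, *Postn* and *Fmod*, and *Fmod* and *Thbs1* differed by less than the larger of their SDs, as did *Dcn* and *Sparc*. By the HFD means the order was *Sparc*, *Dcn*, *Prelp*, *Bgn*, *Thbs1*, *Postn*, *Lum*, *Ogn*, *Fmod* and *Tnc*, with *Dcn*, *Prelp* and *Bgn* at 312 ± 91.5, 299 ± 78.2 and 288 ± 36.97 (SD, n = 3 mice each), which their spread does not separate. *Thbs1* and *Postn*, *Lum* and *Ogn*, and *Fmod* and *Tnc* also differed by less than the larger SD there.

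As a share of the 10 genes' summed counts per kilobase, a measure free of any scaling between libraries, *Dcn* made up 41.2, 44.5 and 40.3% in NCD replicates 1, 2 and 3 and 17.3, 20.8 and 15.8% in HFD replicates 1, 2 and 3. *Prelp* went the other way, from 5.72, 5.80 and 8.15% to 17.3, 17.99 and 16.5%. *Thbs1* took 0.982, 0.371 and 0.656% on NCD and 3.30, 5.08 and 10.8% on HFD. *Ogn* took 4.40, 5.88 and 6.96% and 1.44, 1.74 and 0.897%. The diets did not overlap in any of these shares. For the other 6 genes they did overlap, and the *Bgn* share of NCD replicate 1, 19.9%, was above that of every other mouse. These are shares of a common whole, so a rise of other genes lowers the *Dcn* share without any change in its own level. The *Dcn* level overlapped between the diets (adjusted p = 0.778 from edgeR with all mice), and no direction is given for it. Among all 14527 genes tested that have an exon length, *Thbs1* ranked between 6973 and 8686 from the top on NCD and between 339 and 757 on HFD, and *Sparc* was between 35 and 81 on HFD.

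**Figure D3:**
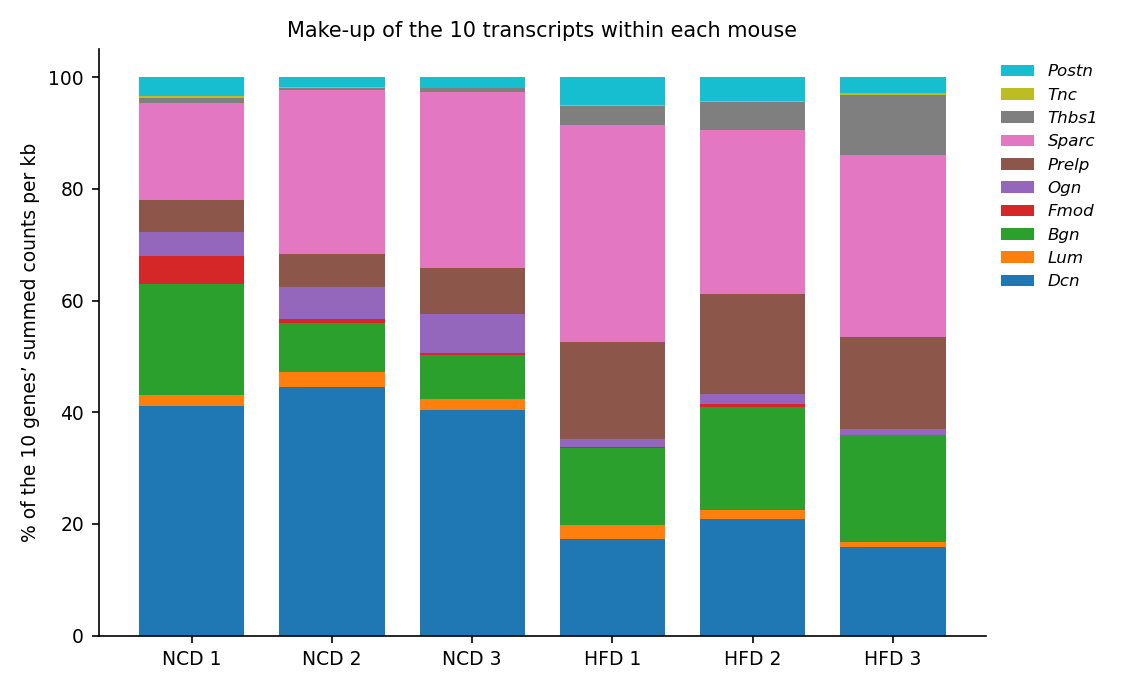
Make-up of the 10 transcripts in each mouse, as the percentage of their summed counts per kilobase of exon, 1 bar per mouse and 1 colour per gene. *Dcn* goes from at least 40.3% in the NCD bars to at most 20.8% in the HFD bars, while *Prelp* and *Thbs1* widen. The bars are shares of a common whole, and the level of *Dcn* itself overlapped between the diets.

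Ratios of one transcript to another within a mouse were compared for 4 pairs of relatives or chromosomal neighbours by exact two-sided permutation tests, which with 3 mice against 3 cannot give a p below 0.1. The ratio of *Bgn* to *Dcn* counts, the 2 chain-bearing relatives, was 0.602, 0.242 and 0.246 on NCD and 0.996, 1.11 and 1.50 on HFD. All HFD-fed mice were above all NCD-fed mice, with the closest NCD value in NCD replicate 1. On the log2 scale the mean difference was 1.85, or 2.28 without NCD replicate 1 (exact permutation p = 0.1, adjusted over the 4 pairs 0.2). *Prelp* and *Fmod* gave ratios of 1.33, 9.77 and 25.3 on NCD and 65.02, 46.5 and 109 on HFD, again without overlap, and a log2 difference of 3.32 with all mice and 2.14 without NCD replicate 1 (exact permutation p = 0.1, adjusted 0.2). The ratio of *Lum* to *Dcn* lay between 0.0583 and 0.0794 on NCD and between 0.0767 and 0.180 on HFD, and overlapped (exact permutation p = 0.2, adjusted 0.267). *Fmod* to *Lum* was 3.33 in NCD replicate 1, and lay between 0.160 and 0.351 in the other 5 mice (exact permutation p = 0.4, adjusted 0.4).

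**Figure D4:**
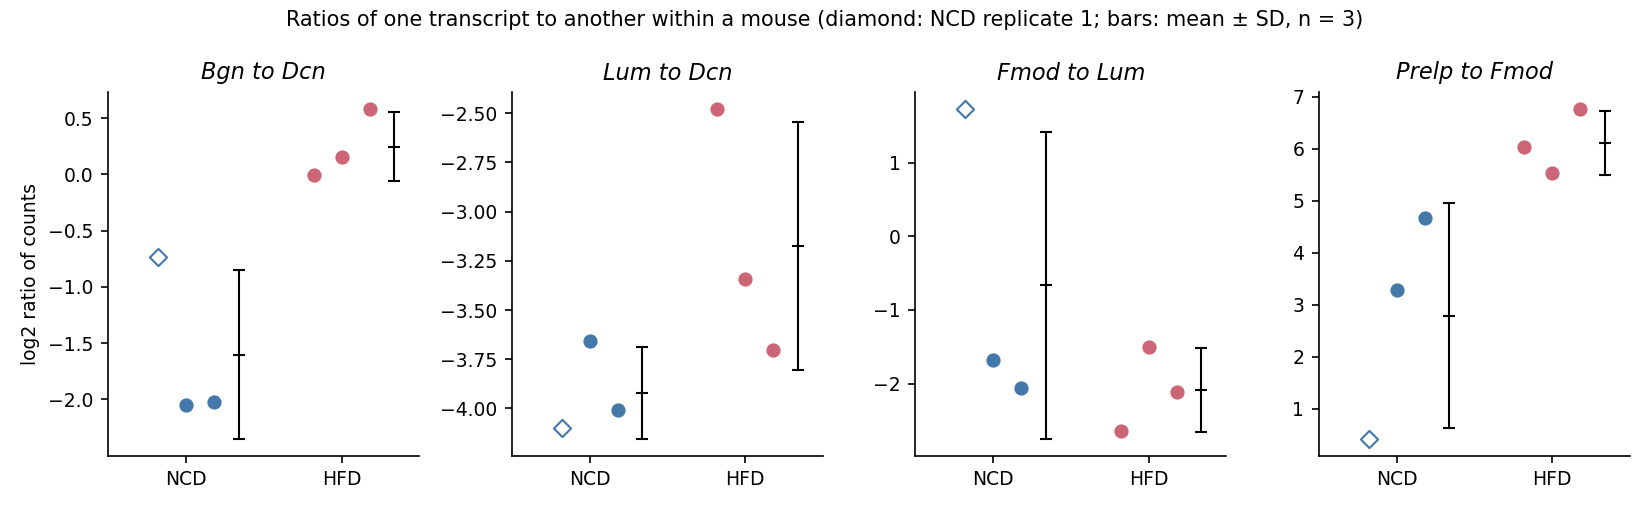
Log2 ratio of the counts of one transcript to another in each mouse for 4 pairs, with the diamond marking NCD replicate 1 and bars giving the mean ± SD of 3 mice. The diets separate for *Bgn* to *Dcn* and *Prelp* to *Fmod*, and NCD replicate 1 stands apart for *Fmod* to *Lum*.

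Several of these genes lie in clusters of the same family. In the annotation of assembly GRCm38.p6, *Dcn* (chr10:97479500-97518163) and *Lum* (chr10:97565501-97572703) follow each other on the forward strand with 47.3 kb between them, and *Kera* and *Epyc* come next. *Kera* was absent from the count table, and *Epyc* ranged from 0.670 to 1.39 TMM-scaled CPM on NCD and from 0.255 to 1.14 on HFD. *Ogn* (chr13:49608015-49624501) follows *Ecm2*, *Aspn* and *Omd*. *Aspn*, which encodes the related proteoglycan asporin, was at 10.5, 27.5 and 37.4 on NCD and 53.5, 33.2 and 14.04 on HFD (log2 fold change 0.41, adjusted p = 0.676 from edgeR), and *Ecm2* and *Omd* did not pass either (adjusted p = 0.697 and 0.426 from edgeR). *Prelp* (chr1:133910304-133930102, reverse strand) and *Fmod* (chr1:134037254-134048280, forward strand) are direct neighbours that point away from each other, 107 kb apart, with *Optc* beyond *Prelp*. *Optc*, the gene of opticin, had 6.97 TMM-scaled CPM in NCD replicate 1, and lay between 0.800 and 1.47 in the other mice. Of this pair *Prelp* rose and *Fmod* did not pass, and the test of their difference is that of their ratio above. The remaining genes stand alone, *Bgn* at chrX:73483601-73495936, *Sparc* at chr11:55394159-55420080, *Thbs1* at chr2:118111876-118127133, *Tnc* at chr4:63959785-64047015 and *Postn* at chr3:54359267-54391041.

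RefSeq start windows were matched for 7 of the 10 genes, without *Dcn*, *Lum* and *Thbs1*. The 250 bases before the start are shown for *Prelp* and *Fmod*, the neighbours with different results, and for *Bgn*, which rose like *Prelp*. The *Prelp* window precedes a start that lies inside the span of the gene given above. The sequences are from RefSeq (GRCm38.p6), written 5′ to 3′ on the strand of the gene, for *Prelp* at chr1:133921402-133921651 (reverse strand), for *Fmod* at chr1:134037004-134037253 (forward strand) and for *Bgn* at chrX:73483351-73483600 (forward strand). Capitals mark matches on either strand to 5 motifs, the TATA box (TATAAA), the CCAAT box, the GC box (GGGCGG), the AP-1 site (TGANTCA) and an E-box (CACGTG).
Prelp: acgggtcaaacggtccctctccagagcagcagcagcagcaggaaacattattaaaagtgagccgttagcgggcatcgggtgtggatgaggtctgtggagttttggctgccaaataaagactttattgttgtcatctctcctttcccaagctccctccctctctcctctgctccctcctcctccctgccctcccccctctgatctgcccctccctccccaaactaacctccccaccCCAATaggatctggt
Fmod: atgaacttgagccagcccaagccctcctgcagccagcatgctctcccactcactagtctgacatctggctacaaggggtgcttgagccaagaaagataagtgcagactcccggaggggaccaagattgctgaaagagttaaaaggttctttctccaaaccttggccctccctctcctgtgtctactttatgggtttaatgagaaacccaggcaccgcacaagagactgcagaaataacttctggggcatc
Bgn: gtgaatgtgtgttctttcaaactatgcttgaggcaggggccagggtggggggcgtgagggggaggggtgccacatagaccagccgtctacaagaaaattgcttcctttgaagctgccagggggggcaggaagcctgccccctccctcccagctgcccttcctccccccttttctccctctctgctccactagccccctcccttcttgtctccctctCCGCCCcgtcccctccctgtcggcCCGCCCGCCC
The *Bgn* window held 3 matches to the GC box, of which the last 2 overlap, and 32.7% of all 32851 windows of this length hold at least 1. *Prelp* held 1 match to the CCAAT box, found in 33.8% of windows, and *Fmod* none of the 5 motifs. The TATA box, AP-1 site and E-box are held by 12.4%, 6.75% and 6.02% of all windows and occur in none of these 3. Windows for *Ogn*, *Postn*, *Sparc* and *Tnc* were also matched and are not printed. A match is a string of letters in the window and is not a measured binding site.

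The genes around the 10 were counted in 6 lists of 89 genes, of which 79 were tested. In all, 13 rose on HFD and none fell by edgeR with all 6 mice, and 24 rose without NCD replicate 1. Over all genes tested, 5.58% were called higher with all mice and 10.7% without NCD replicate 1. At an unadjusted p under 0.05 edgeR gave 30 higher and 4 lower with all mice, and DESeq2 called 29 higher and 3 lower. Over all 15241 genes tested, 4524 had an unadjusted p under 0.05 in edgeR, in either direction, and DESeq2 called 2153 higher and 1751 lower. When NCD replicate 2, NCD replicate 3 or HFD replicate 1 was left out none passed, and 1 passed without HFD replicate 2 or HFD replicate 3. Of the other small leucine-rich proteoglycans none of 10 tested passed in either fit (median log2 fold change -0.47). At an unadjusted p under 0.05 edgeR gave 1 higher and 1 lower with all mice, and DESeq2 called none.

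Of the other matricellular genes, 4 of 17 tested rose and none fell (median log2 fold change 1.11), against 5.58% of all genes tested called higher, and 6 rose without NCD replicate 1, against 10.7%. *Spp1*, the gene of osteopontin, an integrin ligand made by macrophages, went from 0.731, 3.36 and 4.99 TMM-scaled CPM on NCD to 57.1, 695 and 1171 on HFD (log2 fold change 7.72, adjusted p = 0.0355 from edgeR). *Ccn5*, a CCN-family gene also called *Wisp2* and known in adipocyte precursors, went from 3.50, 3.06 and 3.70 to 156, 104 and 185 (log2 fold change 5.44, adjusted p = 0.00399 from edgeR). *Thbs2*, the thrombospondin closest to *Thbs1*, went from 8.31, 11.04 and 14.4 to 201, 115 and 104 (log2 fold change 3.64, adjusted p = 0.0194 from edgeR). Every HFD-fed mouse was above every NCD-fed mouse for *Spp1*, *Ccn5* and *Thbs2*, as in 20.5% of all genes tested. Of the 17 tested genes of this list, 7 lay wholly above and 1 wholly below. *Fstl1*, a SPARC-family gene named here after its values had been seen, also rose (log2 fold change 1.79, adjusted p = 0.0212 from edgeR). *Ccn4* and *Thbs3* passed only without NCD replicate 1, with log2 fold changes there of 2.81 and 1.12 (adjusted p = 0.0184 and 0.0463 from edgeR). *Sparcl1*, the nearest relative of *Sparc*, had -0.39 (adjusted p = 0.561 from edgeR).

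Of the enzymes that build chondroitin and dermatan sulfate chains, 1 of 20 tested rose with all mice, a share near the 5.58% of all genes tested, and 5 rose without NCD replicate 1, where 10.7% of all genes did. The one that rose in both was *Chst11*, a chondroitin 4-O-sulfotransferase, at 10.5, 11.9 and 14.8 TMM-scaled CPM on NCD and 46.4, 38.2 and 45.4 on HFD (log2 fold change 1.80, adjusted p = 0.0194 from edgeR). *Dse*, the epimerase that turns chondroitin into dermatan sulfate, *Chst15* and *Csgalnact1* passed only when NCD replicate 1 was left out (log2 fold changes 1.04, 0.67 and 0.66, adjusted p = 0.0122, 0.0337 and 0.0356 from edgeR). *Xylt1*, *Xylt2* and *B4galt7*, which begin the linker between core protein and chain, had log2 fold changes of 1.63, 0.39 and 0.44 and did not pass (adjusted p = 0.0637, 0.262 and 0.136 from edgeR). The other linker genes *B3galt6*, *Fam20b* and *B3gat3* had -0.55, 0.02 and -0.01 and did not pass either (adjusted p = 0.173, 0.935 and 0.965 from edgeR). All of these linker genes were named outside the naming rule given below. For *Xylt1*, *Xylt2* and *B4galt7* all HFD values lay above all NCD values, as in 20.5% of all genes tested. For *B3galt6* all HFD values lay below, as in 18.7% of all genes tested. Of the 20 tested genes of this list, 8 lay wholly above and 2 wholly below. Of 7 genes of keratan sulfate synthesis only *B3gnt2*, an N-acetylglucosamine transferase, rose (log2 fold change 0.94, adjusted p = 0.0253 from edgeR). Over all genes tested 5.58% were called higher. With total counts alone *B3gnt2* missed the threshold (adjusted p = 0.0590 from edgeR). DESeq2 called 1 of the 7 higher and 1 lower, and 2153 higher and 1751 lower over all 15241 genes tested.

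Of 13 receptor genes 3 rose (5.58% of all genes tested), and 6 rose without NCD replicate 1 (10.7% of all genes tested). The 3 were *Tlr2* and *Tlr4*, the Toll-like receptors that biglycan and tenascin-C can act on, and *Itgav*, the alpha-v integrin that binds periostin and osteopontin. *Tlr2* had a log2 fold change of 1.50 (adjusted p = 0.0327 from edgeR), *Tlr4* of 1.34 (adjusted p = 0.0223) and *Itgav* of 0.94 (adjusted p = 0.0223). The thrombospondin receptors *Cd47* and *Cd36* had 0.03 and 0.27 (adjusted p = 0.941 and 0.824 from edgeR), with intervals of -0.50 to 0.56 and -1.47 to 2.01. *Stab1*, a scavenger receptor that takes up SPARC, *Lrp1* and *Itga9* passed only without NCD replicate 1 (log2 fold changes 1.25, 1.11 and 1.11, adjusted p = 0.0152, 0.0238 and 0.0138 from edgeR).

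Of 12 tested genes of proteases and partners 4 rose, with 5.58% of all genes called higher, and 6 of 13 rose without NCD replicate 1, with 10.7%. *Adamts4*, a protease of proteoglycan core proteins, had a log2 fold change of 2.60, and *Tll1* and *Bmp1*, proteases that mature procollagen and several small proteoglycans, had 1.57 and 1.50 (adjusted p = 0.0454, 0.0496 and 0.0355 from edgeR). *Mmp14*, named after its values had been seen, had 0.73 (adjusted p = 0.0459 from edgeR). *Tgfb1* and *Pcolce* passed only without NCD replicate 1, with 1.302 and 0.89 (adjusted p = 0.00980 and 0.0488 from edgeR).

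**Figure D5:**
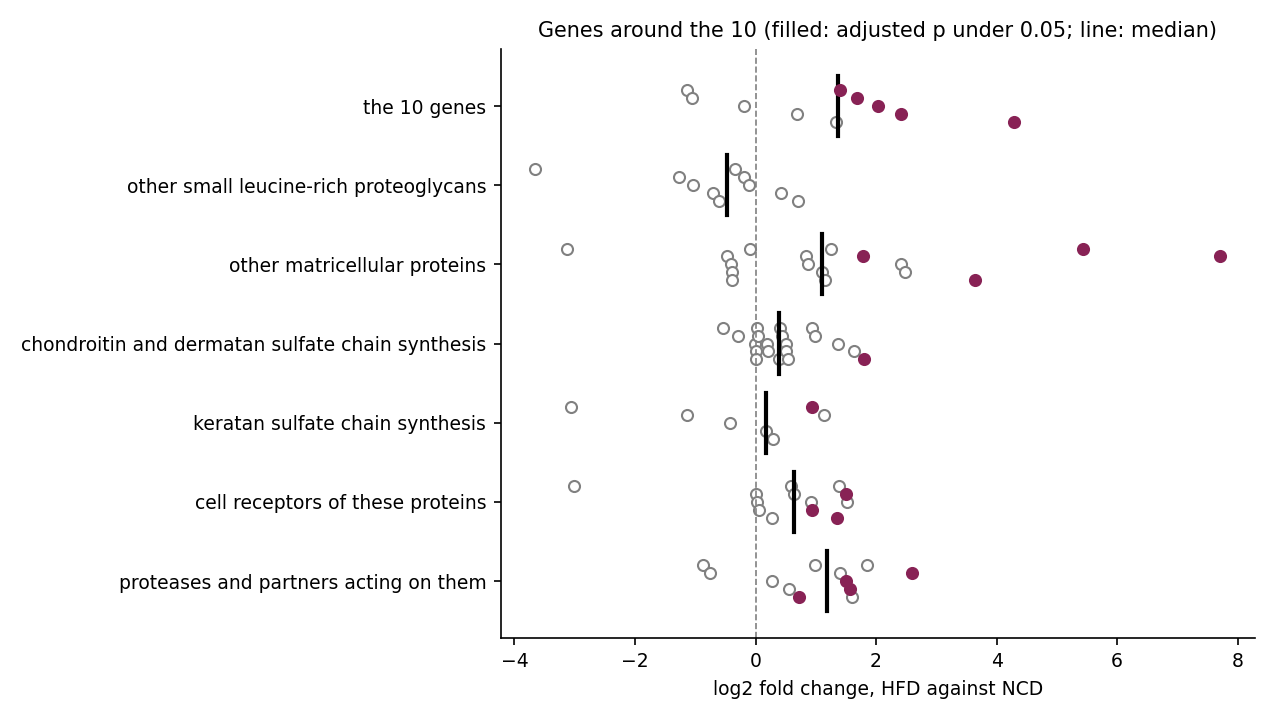
Log2 fold change, HFD against NCD with all 6 mice, of the 10 genes and of the tested genes of 6 related lists, 1 point per gene, filled where the adjusted p was under 0.05 in edgeR, with a line at each list's median. All filled points lie to the right of 0, with *Spp1* at 7.72 the farthest.

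Marker genes of the cell types of the pad were read beside these results. All 7 macrophage markers were higher in every HFD-fed mouse than in any NCD-fed mouse, as were 20.5% of all genes tested. With all mice 4 of the 7 passed higher (5.58% of all genes tested), and without NCD replicate 1 all 7 did (10.7%). The sum of the macrophage markers was 190.1, 423 and 319 TMM-scaled CPM on NCD and 3275, 1297 and 1628 on HFD, with none at 0 in any library. None of the 8 fibroblast and progenitor markers passed by edgeR in either fit (4 at an unadjusted p under 0.05 with all mice, all higher, and 3 by DESeq2). For 5 of the 8 all HFD values lay above all NCD values, against 20.5% of all genes tested, and for 0 all lay below. The sum of the 8 was 533, 647 and 498 on NCD and 720.4, 795 and 529.7 on HFD, which overlapped. *Dpp4* alone made up 263 of the sum in NCD replicate 1. *Pdgfra*, the receptor that marks adipocyte progenitors, had a log2 fold change of 0.73 (adjusted p = 0.0881 from edgeR). The log2 fold changes of the 8 ranged from -1.37 for *Dpp4* to 1.72 for *Mfap5*. Of 6 mesothelial markers *Msln* rose (log2 fold change 2.22, adjusted p = 0.0289 from edgeR), with 5.58% of all genes tested called higher. Of the 6, 2 were higher at an unadjusted p under 0.05 with all mice and 2 by DESeq2, and none was lower. For 2 of them all HFD values lay above all NCD values, against 20.5% of all genes tested. The sum of the mesothelial markers overlapped between the diets, from 112 to 364 on NCD and from 198 to 595 on HFD. None of 6 endothelial markers passed with all mice by edgeR (none at an unadjusted p under 0.05 and none by DESeq2), and *Pecam1* passed without NCD replicate 1 (log2 fold change 0.55, adjusted p = 0.0496). Their sum was 256, 742 and 849 on NCD and 989, 864 and 876 on HFD. None of the 7 adipocyte markers passed with all mice (none at an unadjusted p under 0.05 and none by DESeq2), and *Plin1* and *Lipe*, which coat and break down the lipid droplet, passed lower on HFD when NCD replicate 1 was left out (log2 fold changes -1.17 and -0.95, adjusted p = 0.0234 and 0.0448 from edgeR). Of the smooth muscle and pericyte markers 4 of 8, and of the epithelial markers 3 of 7, also passed lower in that fit. Of all genes tested 10.1% did so there. DESeq2 with all mice called 6 of the 8 and 5 of the 7 lower, and 1751 of the 15241 genes tested. Seminal vesicle genes still took 11.2% and 2.30% of the counts of NCD replicates 2 and 3, against at most 8 counts in an HFD library. The part of this RNA in these falls was not tested. The part of these cell types in the rises of *Thbs1*, *Prelp*, *Bgn*, *Postn* and *Tnc* was not tested.

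The genes most like each of the 10 were found from log2 TMM-scaled CPM centred on its mean over the 6 libraries, as the smallest root mean square distance among 11300 genes. For *Sparc* they were *Ric3* and *Vim*, the vimentin gene of mesenchymal cells, at distances of 0.0992 and 0.149. *Bgn* was nearest to *Ndrg4* (0.0719) and *Tagln2* (0.167), *Prelp* to *Vgll3* and *Ptger2* (0.207 and 0.284) and *Postn* to *Serpinb6b* and *Arhgap22* (0.0927 and 0.280). *Thbs1* had no close match by this distance, with *Basp1* and the lipoprotein-associated phospholipase gene *Pla2g7* nearest at 0.442 and 0.543. The distance also depends on the size of the change, which among the 10 genes was largest for *Thbs1*. *Tnc* was nearest to *P2rx4* and *Pak1*, *Dcn* to *Ttc28* and *Nek8*, *Lum* to *Gpr34* and *Clec3b*, *Ogn* to *Morc4* and *Gng7*, and *Fmod* to *Bicdl1* and *Sertad4*, at distances from 0.123 to 0.289. None of the 10 genes was among the nearest pair of another. With 6 libraries and many genes compared, close matches are a description of these mice.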

How the data were processed

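RNA-seq of gWAT from 3 NCD-fed and 3 HFD-fed mice was analysed from the raw read counts per gene that the authors deposited, 1 column per mouse, without normalization, for 19790 NCBI gene identifiers. Per the submitters' processing notes, HISAT2 2.1.0, StringTie 1.3.4d and builds mm10 and GRCm38 were among the tools and builds named. The sources used here do not give the counting tool, its annotation or its strand setting.

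Symbols came from NCBI's annotation of GRCm38.p6 (19742 identifiers matched) and exon lengths from GENCODE vM21. Genes were kept by filterByExpr with a minimum count of 10 and a minimum total of 15. TMM scaling followed, and differences were tested over all genes kept with edgeR 4.0.16 in R 4.3.3 (quasi-likelihood, Benjamini-Hochberg, threshold 0.05). Standard errors were taken as the log2 fold change over the root of the F statistic, and the 95% interval used the t distribution with the fit's degrees of freedom. The fits were tested on simulated data. Replicates are separate mice, and every pair within a diet differed by more than sampling noise in a chi-square test of their counts. Counting error is small at these depths, and the spread between mice limits precision.

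The 10 genes, the 6 lists, the marker lists and the naming rule were chosen with earlier results of these data known. Named are the 10 genes, up to 3 rises and 3 falls per list, neighbours of the same family, and the 2 genes nearest in pattern. The rule also allows up to 3 genes per list and direction that were called only without NCD replicate 1. *Sparcl1*, *Cd47* and *Cd36* were among the genes named outside this rule. Alternatives were DESeq2 1.42.0 and its size factors, total counts, seminal vesicle genes taken out, no filter, a replicate block and each mouse left out. Figures were drawn with matplotlib 3.10.9.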

Additional observations from a re-analysis of the deposited data

How the results depend on the processing

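The number of genes past the threshold, 1139 in edgeR with all 6 mice, was 3904 with DESeq2 and 12 with the replicate number as a block. Leaving out a mouse gave 2 to 3234, with 3234 without NCD replicate 1, 2 without NCD replicate 2, NCD replicate 3 or HFD replicate 1, 7 without HFD replicate 2 and 4 without HFD replicate 3. Of the calls 74.6% were higher on HFD, against 51.5% without NCD replicate 1 55.1% with DESeq2 and 41.7% with the block. Of the 10 genes, 5 passed with all mice and 0 with the replicate block, and 0 to 5 passed with a mouse left out. Of the 79 related genes, 13 passed with all mice, 7 with total counts alone, 32 with DESeq2, 1 with the replicate block, and 0 to 24 with a mouse left out (24 without NCD replicate 1). The fits without a mouse hold fewer samples, and otherwise the cause was not tested.

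Deviations of same-numbered mice correlated at -0.056, -0.046 and 0.0097, which shows no pairing by replicate number. With 3 mice per diet these values cannot exclude a shared batch. The block was not used beside the results. *Dcn*, at -0.18, reversed to 0.20 with total counts alone, 0.057 without NCD replicate 2 and 0.054 without HFD replicate 3, and *Fmod*, at -1.13, to 0.060 without NCD replicate 1. With a mouse left out *Dcn* ranged from -0.43 to 0.057 and *Fmod* from -1.55 to 0.060. With total counts the median log2 fold change over all genes went from -0.08 to 0.45, and *Dcn* lay below that median in both. The other 8 genes kept their direction under all 12 alternatives.

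The log2 differences between the diets in ratios ranged, with a mouse left out, from 1.62 to 2.28 for *Bgn* to *Dcn*, 0.40 to 1.01 for *Lum* to *Dcn*, -2.12 to -0.22 for *Fmod* to *Lum* and 2.14 to 4.26 for *Prelp* to *Fmod*.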
